A study of Mus musculus with 40 samples.

Results

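The Slpi4 line is a selected population of 4T1, a carcinoma line from mouse mammary gland, that carries 1 short hairpin RNA against Slpi. Its 2 expression profiles were set against the 6 profiles of the other 3 Slpi-directed lines of the same design source, Slpi1U1, Slpi1U2 and Slpi2. The profiles were identified by their column names, and the lines were chosen with earlier results of these data known. These 4 lines account for 16 of the 40 labelled samples and for 8 of the 20 profiles of the series, 2 per line. All 4 lines were infected at a multiplicity of 0.3, selected with hygromycin at 500 µg/ml for about 10 days and profiled by RNA sequencing, so vector class, drug and target are shared and only the hairpin differs by name. The labels list 4 samples per line against 2 profiles, and do not say whether the profiles came from separate cultures, so every p-value below measures only how these libraries vary, and that variation may be technical. No uninfected line was used here, so a value in Slpi4 is read only against the other hairpin lines. Their hairpins are of the shERWOOD type, named for an algorithm that predicts potent hairpin sequences, a class inferred here from the line names and the drug.

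A short hairpin RNA is cut by the cell into a small RNA that guides Argonaute proteins to transcripts with a matching sequence. Its seed bases can also pair with transcripts other than the target, which is why lines with different hairpins against 1 gene are compared: the study asked how much such hairpins disturb genes other than their target. The product of Slpi is secreted, blocks serine proteases of leukocytes such as elastase, and is also known to restrain inflammatory signalling through NF-kappaB. Among genes that respond to interleukin-1 and NF-kappaB are those for the chemokine Ccl2 and for the matrix metalloproteinase Mmp3, whose promoter is also a classic target of AP-1, the dimer of FOS and JUN proteins.

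The 8 libraries held 12.2 M to 20.4 M (mega) reads that could be assigned to genes. The 2 Slpi4 libraries were the deepest, with 20.4 M and 19.5 M reads against 12.2 M to 17.8 M reads in the other 6. They also had reads on more genes, 17792 and 17793 against 15831 to 16701, and at the depth of the shallowest library the expected numbers were 16685 and 16789 against 15643 to 16505. Transcripts of the ribosomal precursor Rn45s took 1.38 to 1.87% of reads in Slpi4 and 1.27 to 1.82% in the others. The 5 markers of the 4T1 epithelium (Epcam, Krt8, Krt18, Krt7 and Cdh1) summed to 2025 to 2055 CPM (a gene's reads scaled to the total of its library) in Slpi4 and to 1920 to 2053 in the other lines, and none of the 5 was called different. Of 7 macrophage and leukocyte markers 6 were in the table, and they summed to 16.8 to 19 CPM in Slpi4 and to 19.1 to 21.9 in the others, mostly from Cd14 and Cd68. The B cell marker Ms4a1 was at 0 in all 8 libraries, and the sums of the lymphocyte and endothelial lists stayed at or below 1.23 CPM. The 6 fibroblast markers summed to 52.5 to 55.7 CPM in Slpi4 and to 41.5 to 52.2 in the others, nearly all of it from Pdgfra, while Col3a1 and Lum stayed at or below 0.164 CPM.

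Slpi itself was slightly higher in Slpi4 than in the 3 lines it was compared with. The gene is on chromosome 2 of GRCm38, minus strand, from 164354070 to 164389095. Its level was 61.9 and 59.9 CPM in Slpi4, 46.9 and 49.5 in Slpi1U1, 53.5 and 57.4 in Slpi1U2, and 48.3 and 48.8 in Slpi2. Both Slpi4 libraries lay above all 6 others, at 1.2 times their mean, a difference of 0.20 ± 0.04 (SE) on the deposited log2-like scale (limma, adjusted p = 0.00951). The call was lost without either Slpi4 library (adjusted p of 0.152 and 0.1), and the difference from Slpi1U2 alone did not pass (0.166). The 8 libraries with shERWOOD hairpins against Mgp, also from hygromycin-selected lines, held 448 to 613 CPM of Slpi. A further line of the Mgp table, 88943, was selected with puromycin at 1 µg/ml and held a mean of 140 CPM. The 4 lines compared here thus lay below all of these, but by very different margins. Those values come from a table that the authors normalized separately, although CPM are scaled to each library's own total. The Mgp-directed lines differ in target and 88943 in drug, and all are set beside the others without a test.

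Of 9499 genes tested, 458 (4.82%) differed between Slpi4 and the mean of the 3 other lines at an adjusted p under 0.05 in limma's moderated test. Among them, 212 (2.23%) were higher and 246 (2.59%) lower in Slpi4, and with both Slpi4 libraries also beyond the other 6 the shares were 2.02% and 2.38%. With the library medians set equal the split was 185 higher and 320 lower, and with quantile normalization 175 and 296. The differences were small. A ratio of mean CPM of 1.5-fold or more was reached by 19 called genes, 4 upward (0.0421%) and 15 downward (0.158%), and one of 2-fold or more by 2 (0.0211%). In 1734 genes (18.3%) neither Slpi4 value fell within the range of the other 6, above it in 866 (9.12%) and below it in 868 (9.14%), against 996 (10.5%) for the 2 Slpi1U1 libraries, 1026 (10.8%) for Slpi1U2 and 1304 (13.7%) for Slpi2. When each other line was tested in turn against the remaining 3, it gave fewer calls than Slpi4: 140 for Slpi1U1 (1.47%), 86 for Slpi1U2 (0.905%) and 318 for Slpi2 (3.35%). The numbers of calls were not themselves tested against each other.

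These calls rest on the spread between 2 libraries of a line. With the 4 line means taken as the samples, so that the spread between hairpins is the error, 1 gene was called, Neat1 (limma, adjusted p = 0.00532), and 755 genes (7.95%) had an unadjusted p under 0.05. The count also fell to 98 without the first Slpi4 library and to 42 without the second. It was 231 without the first Slpi2 library, 295 without the second, and 820 without the second Slpi1U1 library. With the reads of all 8 libraries thinned to equal depth, since the Slpi4 libraries were the deepest, 407 genes were called. Over all genes tested, the root mean square distance of a Slpi4 library from a library of another line was 0.0930 to 0.137 on the deposited scale. That range overlaps the 0.0804 to 0.134 found among the other 3 lines, and the replicates of a line were 0.0705 to 0.0946 apart.

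**Figure D1:**
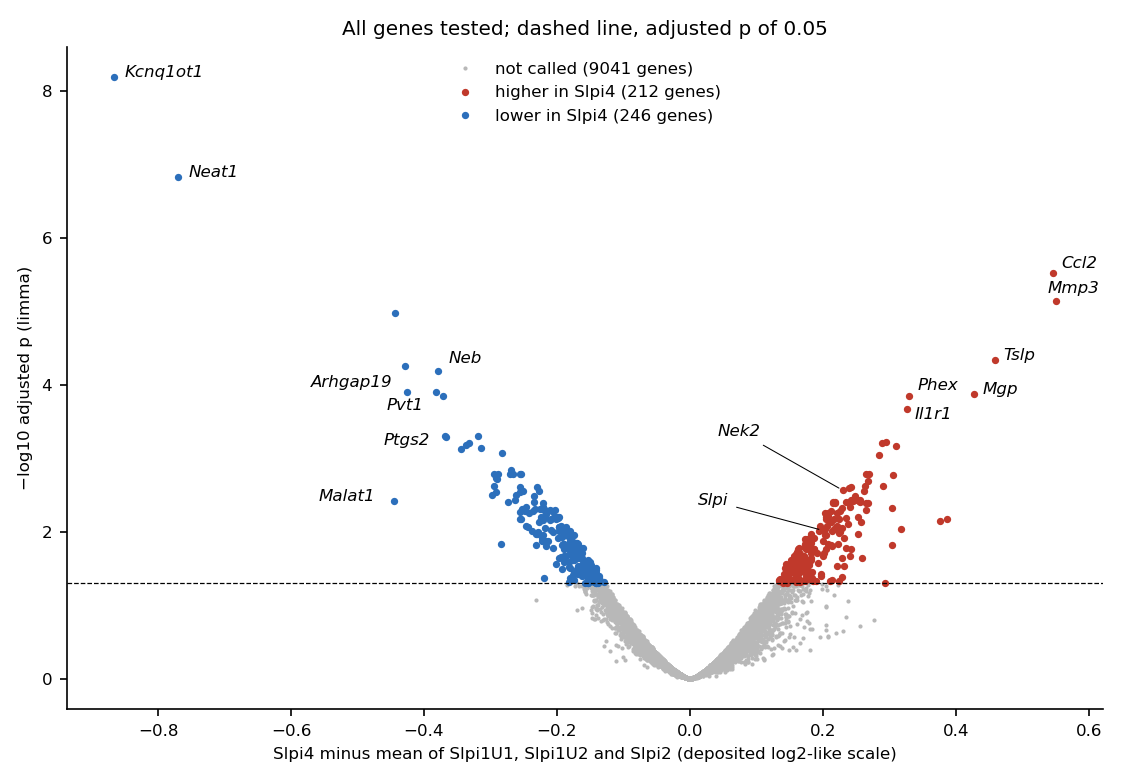
Difference between Slpi4 and the mean of Slpi1U1, Slpi1U2 and Slpi2 on the deposited log2-like scale (x axis) against the negative log10 of the adjusted p (y axis, limma) for all 9499 genes tested, 1 point per gene. Red points are the 212 genes called higher and blue points the 246 called lower in Slpi4. Kcnq1ot1 and Neat1 stand apart at the left, at −0.87 and −0.77, while Mmp3 and Ccl2 lie farthest to the right, both at 0.55.

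Mmp3 and Ccl2 had the largest differences upward. Mmp3, which encodes the secreted protease stromelysin-1 that cleaves several matrix proteins, lies on chromosome 9 (plus strand, 7445822 to 7455975). It stood at 78.1 and 74.9 CPM in Slpi4, 61 and 55.5 in Slpi1U1, 38.8 and 33.7 in Slpi1U2, and 44.5 and 42.3 in Slpi2. The Slpi4 libraries were above all 6 others, but the other lines also differed among themselves, with Slpi1U1 closest to Slpi4. The mean was 76.5 ± 2.24 CPM in Slpi4 (SD, n = 2) and 45.9 ± 11.2 over the 3 other lines (SD of line means, n = 3), a ratio of 1.67 and a difference of 0.55 ± 0.04 (limma, adjusted p = 7.27e-06). Mmp3 remained called when any single library was left out, with a highest adjusted p of 0.00063, and had an adjusted p of 0.411 with line means as samples.

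Ccl2, which encodes a chemokine that draws in monocytes, lies on chromosome 11 (plus strand, 82035571 to 82037453). Its level was 24.6 and 23.4 CPM in Slpi4, 13.9 and 14.7 in Slpi1U1, 10.2 and 9.69 in Slpi1U2, and 9.31 and 7.85 in Slpi2. The Slpi4 mean of 24 ± 0.84 CPM (SD, n = 2) was 2.20 times that of the other lines, 10.9 ± 2.99 (n = 3), the largest ratio upward among the genes named here. The difference was 0.55 ± 0.04 (limma, adjusted p = 2.95e-06), it passed against each of the 3 lines singly and without any single library, and had an adjusted p of 0.279 with line means as samples.

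The 250 bases before the RefSeq start of Mmp3 are shown because the gene rose most on the deposited scale, together with those of Nek2, which is described below for its different pattern across the lines. Both are RefSeq sequence of GRCm38.p6, 5′ to 3′ on the plus strand. They lie at chr9:7445572-7445821 and chr1:191821223-191821472. Capitals mark matches on either strand to TGANTCA (the AP-1 element), CCAAT (the CCAAT box) or TTTGAA (the cell cycle homology region), and no match to the NF-kappaB element searched for was present. The matches did not overlap each other here.
Mmp3: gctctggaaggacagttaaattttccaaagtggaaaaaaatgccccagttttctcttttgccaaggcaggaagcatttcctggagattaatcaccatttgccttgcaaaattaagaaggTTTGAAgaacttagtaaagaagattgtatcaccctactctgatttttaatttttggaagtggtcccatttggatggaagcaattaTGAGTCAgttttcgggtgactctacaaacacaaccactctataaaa
Nek2: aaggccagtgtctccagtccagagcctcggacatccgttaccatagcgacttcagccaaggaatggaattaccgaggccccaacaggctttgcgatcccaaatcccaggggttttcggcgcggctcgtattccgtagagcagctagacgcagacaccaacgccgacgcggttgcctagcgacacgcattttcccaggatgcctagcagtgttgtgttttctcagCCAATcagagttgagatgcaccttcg

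The AP-1 match of Mmp3 begins 46 bases before the start and its TTTGAA match 131 bases before it, and the CCAAT match of Nek2 begins 26 bases before the start. The RefSeq start of Nek2 lies downstream of the GENCODE start from which the gene's coordinates are given below, and the CCAAT match falls between these starts, inside the GENCODE model. TGANTCA was present in 11 of 155 promoters of genes called higher (7.10%), in 9 of 176 of genes called lower (5.11%) and in 283 of 7196 of all genes tested (3.93%), against 6.75% of the 32851 promoters of the table. CCAAT was present in 39.4%, 35.2% and 36.9% of the same 3 sets, TTTGAA in 10.3%, 11.9% and 9.80%, and the NF-kappaB element in 2.58%, 1.14% and 1.42%. These are matches of letters only. They were counted for the 46 of 62 named genes that the promoter table lists and, over all genes tested, for the 7196 of 9499 that it lists.

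Other secreted signals and a receptor were higher as well. Tslp, an epithelial cytokine that acts on dendritic cells, was at 142 and 131 CPM in Slpi4, 112 and 102 in Slpi1U1, 88.2 and 87.7 in Slpi1U2, and 89.4 and 82.6 in Slpi2. It rose 1.45-fold (0.46 ± 0.04, limma, adjusted p = 4.6e-05) and passed against each of the 3 lines singly. Il1r1, the signalling receptor for interleukin-1, was at 42.8 and 42.1 CPM in Slpi4, 30.1 and 30.4 in Slpi1U1, 27.4 and 28.5 in Slpi1U2, and 31.4 and 31.2 in Slpi2. Here the 3 other lines lay close together and Slpi4 alone stood above them, 1.42-fold (adjusted p = 0.000211). Cx3cl1, a membrane-bound chemokine, stood at 26.2 and 26.8 CPM in Slpi4 and at 17.2 to 21.9 in the other 6 libraries (1.40-fold, limma, adjusted p = 0.00164). The Cx3cl1 call was lost without the second Slpi4 library (adjusted p = 0.0557), and those of Tslp and Il1r1 were not lost without any single library.

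Mgp, Phex and Spp1 were also among the genes with the largest differences upward. Mgp, which encodes the calcification inhibitor matrix Gla protein, was at 31.2 and 28.7 CPM in Slpi4, 19.3 and 22.6 in Slpi1U1, 17.4 and 14.8 in Slpi1U2, and 15.6 and 15.1 in Slpi2. All 6 other libraries lay below Slpi4, which was 1.71 times their mean (0.43 ± 0.04, limma, adjusted p = 0.000133). Phex, an endopeptidase whose loss causes a hereditary phosphate-wasting disease, was at 70.8 and 70.1 CPM in Slpi4, 64.1 and 64.4 in Slpi1U1, 50.2 and 49 in Slpi1U2, and 43.6 and 43.4 in Slpi2. Slpi1U1 lay near Slpi4 for Phex, and that pair alone did not pass (adjusted p = 0.174). Spp1, which encodes osteopontin, was at 1737 and 1640 CPM in Slpi4 and from 1214 to 1630 in the other libraries (1.21-fold, limma, adjusted p = 0.00469, and 0.114 without the first Slpi4 library). The Spp1 model shares 18.8% of its exon bases with another gene model.

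Dusp6, Trib2, Deptor and Igfbp4 complete the leading genes with Mt1. Dusp6, a phosphatase that switches off ERK, was at 150 and 145 CPM in Slpi4, 141 and 133 in Slpi1U1, 98.8 and 106 in Slpi1U2, and 105 and 117 in Slpi2, so Slpi1U1 again lay nearest to Slpi4 (1.26-fold over the 3 lines, limma, adjusted p = 0.00167). Trib2, a pseudokinase, was at 36 and 36.2 CPM in Slpi4 and at 20.2 to 32.6 in the others (1.41-fold, adjusted p = 0.000684). Deptor, which binds and inhibits mTOR, was at 77.1 and 77.4 CPM against 53.1 to 71 (1.29-fold, adjusted p = 0.000594). Igfbp4, an insulin-like growth factor binding protein, was at 687 and 759 CPM against 525 to 640 (1.24-fold, adjusted p = 0.00916, and 0.189 without the second Slpi4 library). For Phex, Dusp6, Trib2, Spp1 and Deptor the difference from Slpi1U1 alone did not pass, with adjusted p of 0.174, 0.282, 0.104, 0.364 and 0.194, while those from Slpi1U2 and Slpi2 did.

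The metallothionein gene Mt1, whose product binds zinc and copper, was at 98 and 115 CPM in Slpi4 and at 65.8 to 92.8 in the others (1.29-fold, limma, adjusted p = 0.015). The call for Mt1 was lost without the second Slpi4 library (adjusted p = 0.267) and without the first Slpi2 library (0.055). Mt2, its neighbour in function, was named after its values were seen: it was called (1.41-fold, adjusted p = 0.0067) although the libraries overlapped. For Mt2 the difference from Slpi2 alone was 0.07 (adjusted p = 0.738), and the call was lost without the second Slpi4 library (0.161). By ratio the remaining genes higher in Slpi4 were Add2 (1.60-fold, a membrane cytoskeleton protein), Sema6d (1.49-fold, a semaphorin), Zbtb8a (1.46-fold, a zinc finger protein) and Slc43a2 (1.40-fold, an amino acid transporter). All 4 stood below 15 CPM in every library, and both Slpi4 libraries lay above the other 6. Of these 4, Add2 was not called without the second Slpi4 library (adjusted p = 0.089), Sema6d not without the first (0.0764) and Slc43a2 not without either (0.0825 and 0.272) or without the first Slpi2 library (0.0534). Zbtb8a fell below the expression minimum when either Slpi4 library was left out. It thus passed the minimum only through the line in which it is high, and how far its call rests on 1 Slpi4 library could not be examined.

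**Figure D2:**
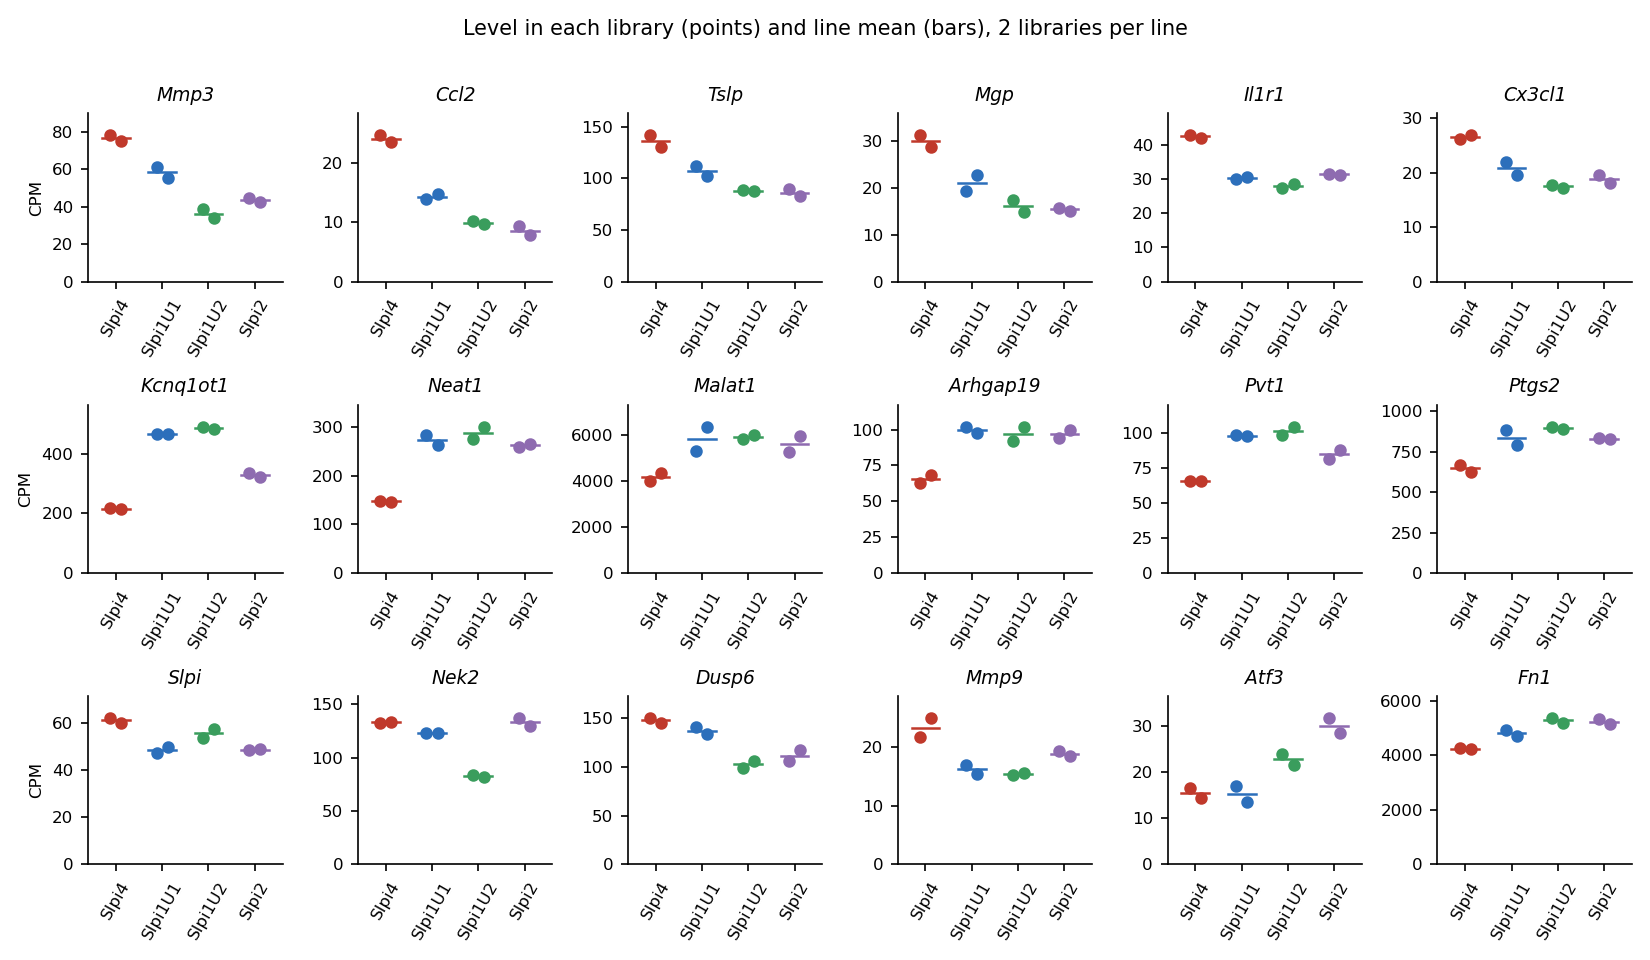
Level of 18 genes in CPM (y axes, each from 0) in the 8 libraries (points), with the mean of each line as a bar and 2 libraries per line. For Mmp3, Ccl2, Tslp, Mgp, Il1r1 and Cx3cl1 both Slpi4 points lie above the others, and for Kcnq1ot1, Neat1, Malat1, Arhgap19, Pvt1 and Ptgs2 below them, while Nek2 is low in Slpi1U2 only (84.1 and 81.7 CPM) and Atf3 in Slpi4 (16.5 and 14.5 CPM) overlaps Slpi1U1.

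The largest differences downward were in long noncoding RNAs, transcripts that do not encode protein. Kcnq1ot1, an imprinted RNA transcribed antisense to Kcnq1, maps to chromosome 7, minus strand, 143203458 to 143296549, and is annotated as 1 exon of 93092 bases. Its level was 216 and 214 CPM in Slpi4, 466 and 466 in Slpi1U1, 490 and 483 in Slpi1U2, and 336 and 322 in Slpi2. Slpi4 was lowest and Slpi2 in between. The mean of 215 ± 1.74 CPM (SD, n = 2) was 1.99-fold below that of the 3 other lines, 427 ± 85.4 (n = 3), a difference of −0.87 ± 0.04 (limma, adjusted p = 6.43e-09). The strand setting of the authors' counting is not given in the sources used here, so reads from Kcnq1ot1 and from overlapping introns of Kcnq1 cannot be told apart.

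Neat1, the RNA on which nuclear paraspeckles are built, maps to chromosome 19, minus strand, 5824708 to 5845478. It was at 149 and 147 CPM in Slpi4, 285 and 265 in Slpi1U1, 277 and 302 in Slpi1U2, and 261 and 266 in Slpi2. The 3 other lines lay close together and Slpi4 was 1.87-fold below them (−0.77 ± 0.04, limma, adjusted p = 1.49e-07). Neat1 was the only gene that passed with line means as samples. Malat1, an abundant nuclear RNA encoded next to it on chromosome 19 (5795690 to 5802672), was at 4008 and 4327 CPM in Slpi4, 5304 and 6364 in Slpi1U1, 5807 and 5995 in Slpi1U2, and 5274 and 5947 in Slpi2. It was 1.39-fold lower (adjusted p = 0.00374), and the Malat1 call was lost without the first Slpi4 library (0.0895). Pvt1, whose gene lies beside Myc, was at 66 and 65.8 CPM in Slpi4 and at 82 to 105 in the others (1.44-fold lower, adjusted p = 0.000123).

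Several coding transcripts were lower in Slpi4. Arhgap19, which encodes a GTPase-activating protein, was at 62.6 and 68.2 CPM in Slpi4, 102 and 97.9 in Slpi1U1, 92.1 and 102 in Slpi1U2, and 94.3 and 99.6 in Slpi2. The 3 other lines were nearly equal and Slpi4 was 1.5-fold below (−0.43 ± 0.04, limma, adjusted p = 0.000123), with an adjusted p of 0.092 with line means as samples. Ptgs2, the inducible cyclooxygenase of prostaglandin synthesis, was at 665 and 626 CPM in Slpi4, 883 and 790 in Slpi1U1, 904 and 890 in Slpi1U2, and 835 and 826 in Slpi2. It was 1.32-fold lower in Slpi4 (adjusted p = 0.000509) and passed against each of the 3 lines. Col7a1, the collagen of anchoring fibrils, was at 97.3 and 108 CPM against 130 to 153 (1.35-fold lower, adjusted p = 0.000664), and Msln, which encodes the surface protein mesothelin, at 158 and 152 against 173 to 224 (1.33-fold lower, adjusted p = 0.000623). None of the 4 lost its call without any single library.

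For another group of transcripts Slpi2 lay between Slpi4 and the other lines. Neb, which encodes the giant muscle protein nebulin, was at 12.4 and 12.9 CPM in Slpi4 and 17.2 and 17.4 in Slpi2, against 24.3 to 26.1 in Slpi1U1 and Slpi1U2 (1.79-fold lower than the 3 lines, limma, adjusted p = 6.43e-05). Phxr4 was at 12.1 and 14.1 CPM in Slpi4 and 16.3 and 16.7 in Slpi2, against 25 to 27.6 in the other 4 libraries, and Tbrg3 at 39.7 and 37.4 in Slpi4 and 41.7 and 46.1 in Slpi2, against 59.7 to 68. Against Slpi2 alone neither Phxr4 nor Tbrg3 passed (adjusted p of 0.113 and 0.297). Msantd2 stood at 123 and 112 CPM in Slpi4 against 143 to 178 (1.35-fold lower, adjusted p = 0.000739). The genes lower by ratio were B3galt2 (1.74-fold), Slc25a27 (1.67-fold), Smug1 (1.54-fold, a uracil-DNA glycosylase), Ppp1r12b (1.5-fold, a subunit of myosin phosphatase) and Rufy3 (1.48-fold). Without the second Slpi4 library B3galt2, Slc25a27, Ppp1r12b and Rufy3 were not called (adjusted p of 0.0603, 0.0672, 0.0586 and 0.115), and without the first Smug1 and Rufy3 were not (0.127 and 0.103).

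Nek2, a centrosomal kinase of mitosis, was called higher in Slpi4 (0.23 ± 0.04, 1.18-fold, limma, adjusted p = 0.00269), but its libraries did not stand apart from all the others. The gene lies on chromosome 1 (191821444 to 191833050), and its level was 132 and 134 CPM in Slpi4, 123 and 123 in Slpi1U1, 84.1 and 81.7 in Slpi1U2, and 137 and 130 in Slpi2. Slpi4 and Slpi2 overlapped, and only Slpi1U2 was low. Against Slpi1U2 the difference was 0.57 (adjusted p = 6.22e-06), against Slpi1U1 0.12 (0.174) and against Slpi2 0.00 (0.985). Without the Slpi1U2 line the difference of Nek2 fell to 0.06 (adjusted p = 0.451), and without the second Slpi4 library the adjusted p was 0.0714. None of the other 29 mitotic genes tested was called. Plk1, Aurka and Birc5 differed by no more than 0.003, and Mki67 and Ube2c, at the ends of the list after Nek2, by −0.14 and 0.14.

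Gene lists were described by their counts beside the 4.82% of all genes tested and by their median beside 0.0067, the median of all genes. Of 9 genes tested in the list of matrix metalloproteinases, related proteases and their inhibitors, 2 were called higher (Mmp3 and Mmp9) and 2 lower (Adam8 and Adamts1). Mmp9, a gelatinase, was at 21.6 and 24.9 CPM in Slpi4 against 15.3 to 19.3 (1.38-fold, limma, adjusted p = 0.00382). The membrane-anchored sheddase Adam8 was at 42.2 and 39 CPM against 48.4 to 54.8 (1.26-fold lower, adjusted p = 0.00927), and Adamts1, which cleaves proteoglycans, at 61.1 and 54.6 against 67 to 85.3 (1.30-fold lower, adjusted p = 0.0067). Without the second Slpi4 library the adjusted p of Mmp9, Adam8 and Adamts1 was 0.132, 0.199 and 0.173. Mmp14, Timp1 and Timp2 were not called, with differences of 0.03, −0.0013 and 0.07.

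The chemokine, cytokine and NF-kappaB list had 2 of 20 tested genes higher (Ccl2 and Cx3cl1) and Ptgs2 lower, with a median of 0.06. Its feedback genes Nfkbia, Tnfaip3 and Nfkb2 were not called (differences of 0.02, −0.02 and 0.0006), nor were Cxcl1, Cxcl5, Cxcl10 and Ccl5 (0.07, 0.13, 0.07 and 0.02). Csf1 had a difference of 0.17 (limma, adjusted p = 0.0541). Of 8 secreted protease inhibitors, Slpi and Cstb, a cathepsin inhibitor, were higher. Cstb was at 268 and 264 CPM against 206 to 242 (1.18-fold, adjusted p = 0.00784, and 0.116 and 0.0979 without either Slpi4 library), and all 8 differences were positive.

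Of 16 immediate early and ERK feedback genes, 4 were called higher and none lower: Dusp6, Egr1, Junb and Spred1. Taken singly, 3 were called higher against Slpi1U2, 3 against Slpi2 and none against Slpi1U1. The adjusted p (limma) against Slpi1U1 was 0.282 for Dusp6, 0.0789 for Egr1, 0.0505 for Junb and 0.0637 for Spred1. Egr1, an early transcription factor, was at 49 and 53 CPM in Slpi4 against 33.4 to 44.3 (1.30-fold, limma, adjusted p = 0.00277, and 0.0952 without the second Slpi4 library). Junb, a partner in AP-1, was at 44.5 and 54.9 CPM against 33.7 to 43.6 (a difference of 0.22, adjusted p = 0.0466). The Junb call was lost without either Slpi2 library (0.111 and 0.0946), without the second Slpi1U2 library (0.0732) and without the second Slpi4 library (0.507). Spred1, an inhibitor of RAS signalling, was at 167 and 159 CPM against 135 to 149 (1.17-fold, adjusted p = 0.00839, and 0.158 and 0.073 without either Slpi4 library). Fosl1, Jun, Myc, Etv4 and Dusp1 were not called, and their differences ran from −0.10 to 0.02, so the list as a whole had a median of 0.03.

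Of 17 hypoxia and glycolysis genes, P4ha2, a collagen prolyl hydroxylase, and Car9, a carbonic anhydrase, were lower and none was higher, with a median of −0.07 and 13 negative differences. P4ha2 was at 30 and 30.2 CPM in Slpi4 against 36.2 to 41.6 (1.26-fold lower, limma, adjusted p = 0.011) and Car9 at 102 and 105 against 115 to 131 (1.17-fold lower, adjusted p = 0.0167). Against Slpi1U1 alone none of the 17 was called, against Slpi1U2 1 was lower and against Slpi2 3 were. Car9 passed only against Slpi2 (0.00413, beside 0.201 and 0.102), and without that line it differed by −0.12 (0.118). P4ha2 was not called with reads thinned to equal depth (0.0863). Neither P4ha2 nor Car9 was called without the first (adjusted p of 0.138 and 0.206) or the second Slpi4 library (0.153 and 0.154), and Car9 not without the first Slpi2 library (0.054). The ATF4 stress list had 2 of 19 genes lower, Atf3 and Slc3a2, with a median of −0.07 and 15 negative differences. That median averages large differences of opposite sign, for Slpi4 lay between the other lines on this list. Against Slpi1U1 all 19 differences were positive and 14 genes were called higher (median 0.31), against Slpi1U2 3 were called lower (median −0.09), and against Slpi2 18 were negative and 17 called lower (median −0.49). Chac1, which degrades glutathione, differed by 0.88 from Slpi1U1 (limma, adjusted p = 6.43e-07), −0.38 from Slpi1U2 (0.00133) and −0.72 from Slpi2 (5.77e-06), and Trib3, a pseudokinase induced by ATF4, by 0.60, −0.11 and −0.64. Chac1 and Trib3 were chosen after their values were seen. Atf3, a stress-induced transcription factor, was at 16.5 and 14.5 CPM in Slpi4, 17.1 and 13.5 in Slpi1U1, 24 and 21.6 in Slpi1U2, and 31.8 and 28.5 in Slpi2. Slpi4 and Slpi1U1 overlapped for Atf3, and without the Slpi2 line its difference was −0.12 (adjusted p = 0.201). Without the second Slpi4 library Atf3 had an adjusted p of 0.183. Slc3a2, the heavy chain of amino acid transporters, was above Slpi1U1 (0.21, adjusted p = 0.0249) and below Slpi1U2 (−0.20, 0.0151) and Slpi2 (−0.49, 2.09e-05), and without the Slpi2 line its difference was 0.0013. Its call was also lost without either Slpi4 library (0.216 and 0.157) or either Slpi2 library (0.0544 and 0.0517).

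Matrix genes moved both ways. Fn1, which encodes fibronectin, was at 4261 and 4223 CPM in Slpi4 against 4732 to 5374 (1.21-fold lower, limma, adjusted p = 0.00839), and Tnc, which encodes tenascin-C, at 120 and 121 against 129 to 163 (1.21-fold lower, adjusted p = 0.00496). Sparc, a collagen-binding matrix glycoprotein, was at 315 and 333 CPM against 259 to 286 (1.16-fold higher, adjusted p = 0.00815). From Slpi1U1 alone none of these 3 differed enough to be called, with adjusted p of 0.165 for Fn1, 0.296 for Tnc and 0.0746 for Sparc. The other 9 genes tested of the mesenchymal list, Vim among them (0.05), were not called, and of 14 epithelial adhesion and keratin genes none was, with differences from −0.12 to 0.13. Without the first Slpi4 library Fn1 and Tnc had adjusted p of 0.128 and 0.0846, and without the second Fn1, Tnc and Sparc had 0.167, 0.0979 and 0.181. Of the BMP and TGF-beta targets, Id1 was higher (16.3 and 16.4 CPM against 10.7 to 13.5, adjusted p = 0.0258) and Cyr61 lower (147 and 147 against 151 to 197, adjusted p = 0.00388) among 10 tested. With the lines taken singly, Id1 passed only against Slpi2 (0.0445), and Cyr61 did not pass against Slpi2 (−0.09, 0.382). Id1 was not called without the first or second Slpi4 library (0.187 and 0.219) or the first Slpi2 library (0.0591), nor Cyr61 without either Slpi4 library (0.0626 and 0.0776).

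The remaining lists held 0 to 3 calls each. Among 9 histone genes tested 3 were higher, the replacement variants H3f3b (607 against 517 mean CPM, limma, adjusted p = 0.00366), H3f3a (109 against 91.1, 0.00525) and H2afv (70.7 against 57.8, 0.00999). The H3f3a model shares 22.8% of its exon bases with another model, and all 3 calls were lost without either Slpi4 library, with adjusted p of 0.0603 to 0.129. Among the antioxidant genes the ferritin heavy chain gene Fth1 (1.16-fold) and the peroxiredoxin gene Prdx1 (1.11-fold) were higher of 17, Insig1, a brake on sterol synthesis, was higher of 20 cholesterol genes (a difference of 0.29, adjusted p = 0.00235), Ifitm3 was higher of 12 interferon-stimulated genes (1.18-fold), Pcna of 23 replication genes (1.13-fold) and Edem1 of 18 genes of the endoplasmic reticulum (1.11-fold). Edem1 was lowest in Slpi1U2 (89 mean CPM), and Slpi4 (119) lay between Slpi2 (112) and Slpi1U1 (122). Without the Slpi1U2 line the difference of Edem1 fell to 0.04 (limma, adjusted p = 0.673). Its call was also lost with equal library medians (0.0661), quantile normalization (0.0746) and thinned reads (0.0756). Ago3, which encodes an Argonaute protein, was the only one of 13 small RNA processing genes called, 1.16-fold lower (adjusted p = 0.0259). Each of these 7 lost its call without at least 1 Slpi4 library, with highest adjusted p of 0.28 for Fth1, 0.302 for Prdx1, 0.0505 for Insig1, 0.254 for Ifitm3, 0.216 for Pcna, 0.384 for Edem1 and 0.265 for Ago3. Other single libraries that decided a call were those of Slpi2 for Fth1 (0.0644 and 0.0621), Prdx1 (0.0626 and 0.0807), Edem1 (0.0678 and 0.112), the second of Slpi2 for Pcna (0.0555) and Ago3 (0.0681), the first of Slpi1U2 for Prdx1 (0.057), and both of Slpi1U2 for Edem1 (0.0553 and 0.0772). None of 11 p53 targets and none of 30 ribosomal protein genes was called, although all 30 ribosomal differences were positive, from 0.0006 for Rpl8 to 0.18 for Rps15. Against Slpi2 alone only 8 of the 30 were positive.

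**Figure D3:**
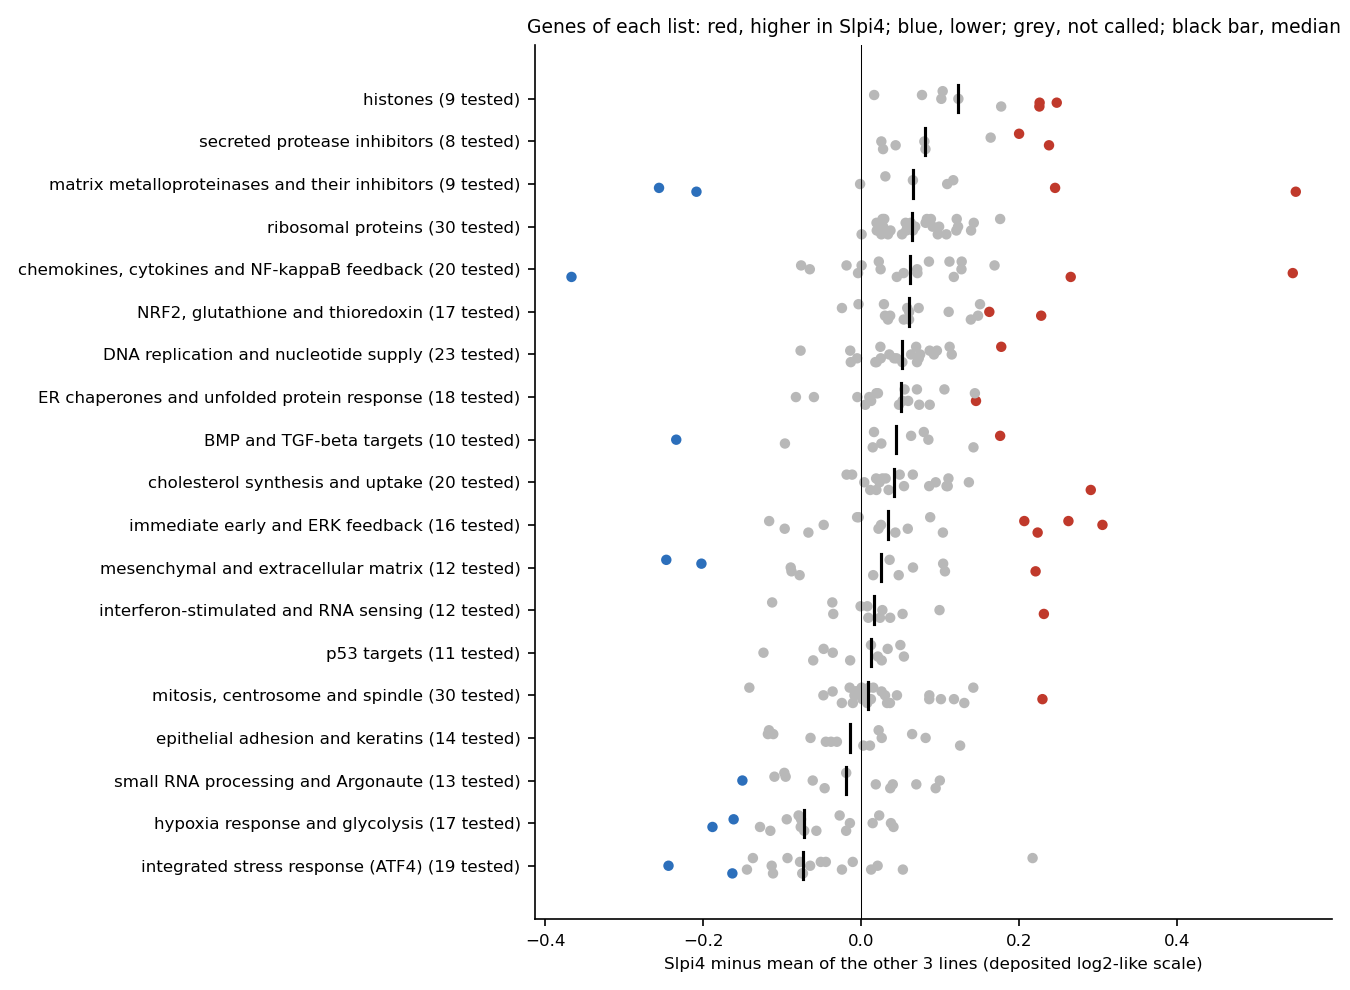
Difference between Slpi4 and the mean of the other 3 lines on the deposited log2-like scale (x axis) for every gene tested in 19 lists (rows), 1 point per gene, with the median of each list as a black bar. Red and blue points are genes called higher and lower. The lists are ordered by median, from −0.07 for the ATF4 stress list to 0.12 for histones, and most points are grey, that is not called.

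Long noncoding RNAs as a class were described after Neat1, Malat1 and Kcnq1ot1 had been seen, so their counts are given without a test. Of 83 tested, 20 (24.1%) were called lower and 1 (1.2%) higher, beside 2.59% and 2.23% of all genes. Those lower included Gas5, a host of small nucleolar RNAs (350 against 419 mean CPM, limma, adjusted p = 0.00496), Airn, an imprinted antisense RNA (6.44 against 8.75, adjusted p = 0.0418), and 9230105E05Rik (6.24 against 14.6, 2.34-fold lower, adjusted p = 1.03e-05). Of these, 9230105E05Rik was called without any single library. Gas5 was not called without the first or second Slpi4 library (0.0626 and 0.119). Airn was called in 3 of 8 such fits, its call being lost without either Slpi4 library (0.293 and 0.238), either Slpi2 library (0.099 and 0.0724) or the second Slpi1U2 library (0.0592), and against Slpi2 alone it differed by −0.04 (0.701). The median over the 83 was −0.04, so most of them differed little. Against single lines, 19 were lower than in Slpi1U1, 18 lower than in Slpi1U2 and 7 lower than in Slpi2. Without the first or the second Slpi4 library 6 were called lower, and with line means as samples Neat1 alone.

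Called genes also differed in length. The median exon length of coding genes was 4072 bases for those called higher, 7113 for those called lower and 4831 for all tested. With coding genes split by exon bases into 3 classes of equal size, in the shortest class, below 3639 exon bases, 3.02% were called higher and 0.916% lower, and in the longest class, above 6276, 1.73% were higher and 3.77% lower. The 21 clustered histone genes tested, which are short, all had positive differences with a median of 0.17 and none was called. Without the first Slpi4 library their median was 0.30 with 1 called, without the second 0.03 with none, and without the second Slpi1U1 library 11 were called higher. These genes also differed between the libraries of a line: of the 21, the second library was the higher in 21 for Slpi4, 21 for Slpi1U1, 16 for Slpi1U2 and 20 for Slpi2. The Rn45s share and the counts of genes with reads, given above, are the measures of library makeup at hand, and their part in these length and class patterns was not tested. Of the 2948 genes in the shortest class, 89 were called higher and 27 lower. Without the first Slpi4 library the numbers were 23 and 7, and without the second 7 and 4. In the longest class 51 were called higher and 111 lower, against 7 and 18 without the first Slpi4 library and 7 and 6 without the second, where no excess of lower calls was left. Against Slpi2 alone, 48 of the shortest class were higher and 40 lower, and 62 and 59 of the longest, with no turn of the balance. Slpi2, tested in turn against the other 3 lines, had 55 of the shortest class higher and 31 lower, and 50 and 63 of the longest. Slpi1U1 had 4 and 29 of the shortest class, and 23 and 24 of the longest.

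**Figure D4:**
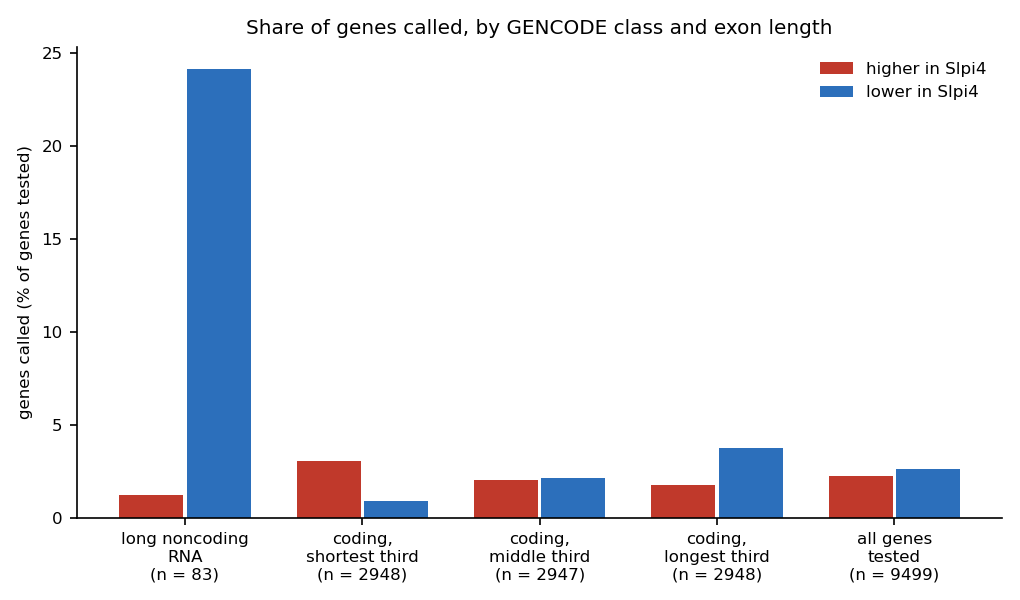
Share of genes called higher (red) and lower (blue) in Slpi4, in percent of the genes tested (y axis, from 0), for long noncoding RNAs, for coding genes split in 3 by exon bases, and for all genes tested. Long noncoding RNAs have 24.1% lower and 1.2% higher, and coding genes have 3.02% higher and 0.916% lower in the shortest class, and 1.73% and 3.77% in the longest, a balance that does not turn against Slpi2 alone.

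Against single lines, Slpi4 differed in 210 genes from Slpi1U1 (2.21%), in 543 from Slpi1U2 (5.72%) and in 352 from Slpi2 (3.71%). The 3 comparisons share the Slpi4 libraries. Higher and lower calls were 88 (0.926%) and 122 (1.28%) against Slpi1U1, 303 (3.19%) and 240 (2.53%) against Slpi1U2, and 165 (1.74%) and 187 (1.97%) against Slpi2. With the library medians set equal, the calls against Slpi1U1 split into 71 higher and 154 lower. Those against Slpi1U2 split into 263 higher and 307 lower, so that the more frequent direction changed for Slpi1U2 only. Leaving out single libraries gave 56 (second of Slpi4) to 691 (second of Slpi1U1) calls against Slpi1U1, 151 (second of Slpi4) to 808 (second of Slpi1U1) against Slpi1U2, and 102 (first of Slpi2) to 513 (second of Slpi1U1) against Slpi2. Called against all 3 lines singly were 20 higher and 30 lower genes. Besides Ccl2, Mmp3, Tslp, Mgp, Il1r1, Cx3cl1, Add2, Sema6d and H3f3a, the higher ones included Klf4 and Ptgs1, and besides Neat1, Malat1, Kcnq1ot1, Pvt1, Arhgap19, Ptgs2, Col7a1, Msantd2, Neb, Slc25a27 and Ppp1r12b, the lower ones included Il24, Htt and Mdm4. Klf4, Ptgs1, Il24, Htt and Mdm4 were picked from the lists of 20 and 30 after the values were seen.

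The leading genes were set beside the other hairpin lines of the series, without a test. The line 66708, selected with puromycin at 1 µg/ml and listed with the Slpi-directed lines, held 151 ± 8.14 CPM of Slpi (SD of 2 libraries), above the 3 lines and above the 140 CPM of 88943. It had mean levels farther from the 3 lines than Slpi4 for Mmp3 (178.5 CPM), Ccl2 (38.1), Tslp (174), Mgp (105) and Il1r1 (63.5), and for Malat1 (3691), Arhgap19 (52.8) and Pvt1 (50.8) on the low side. For Deptor it was at 62.7 CPM, close to the 3 lines, and for Egr1 at 26.4, below them. Since 66708 and Slpi4 are read against the same 3 lines, these values give no independent support for the direction in Slpi4. In the 8 libraries with shERWOOD hairpins against Mgp, Mmp3 ranged from 70 to 148.5 CPM, Ccl2 from 29.4 to 66.6, Neat1 from 116 to 229 and Kcnq1ot1 from 191 to 235. For these 4 genes the Slpi4 values thus lay within or near the range of the Mgp-directed lines, and Slpi1U1, Slpi1U2 and Slpi2 lay outside it. The line 88943, selected with puromycin like 66708, had mean levels of 7 CPM for Ccl2, 289 for Neat1 and 649.5 for Kcnq1ot1, on the side of those 3 lines. For Mmp3 it was at 73.5 CPM, near Slpi4. Of the 17 genes named by rank as higher in Slpi4, both Slpi4 libraries lay outside the range of the 8 Mgp-directed ones in 11. They lay above it in 9, Tslp, Il1r1, Dusp6 and Deptor among them. Mgp, the target of those hairpins, is also among the 9, which the design fixed in advance. Of the 17 named as lower, both lay outside the range in 7 and below it in 4, Malat1 and Arhgap19 among them. The rest of the 11 and of the 7 lay on the opposite side. The share over all genes was not counted, and the named genes were picked for extreme Slpi4 values. These counts therefore have no baseline and are not read as a trait of the named genes.

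**Figure D5:**
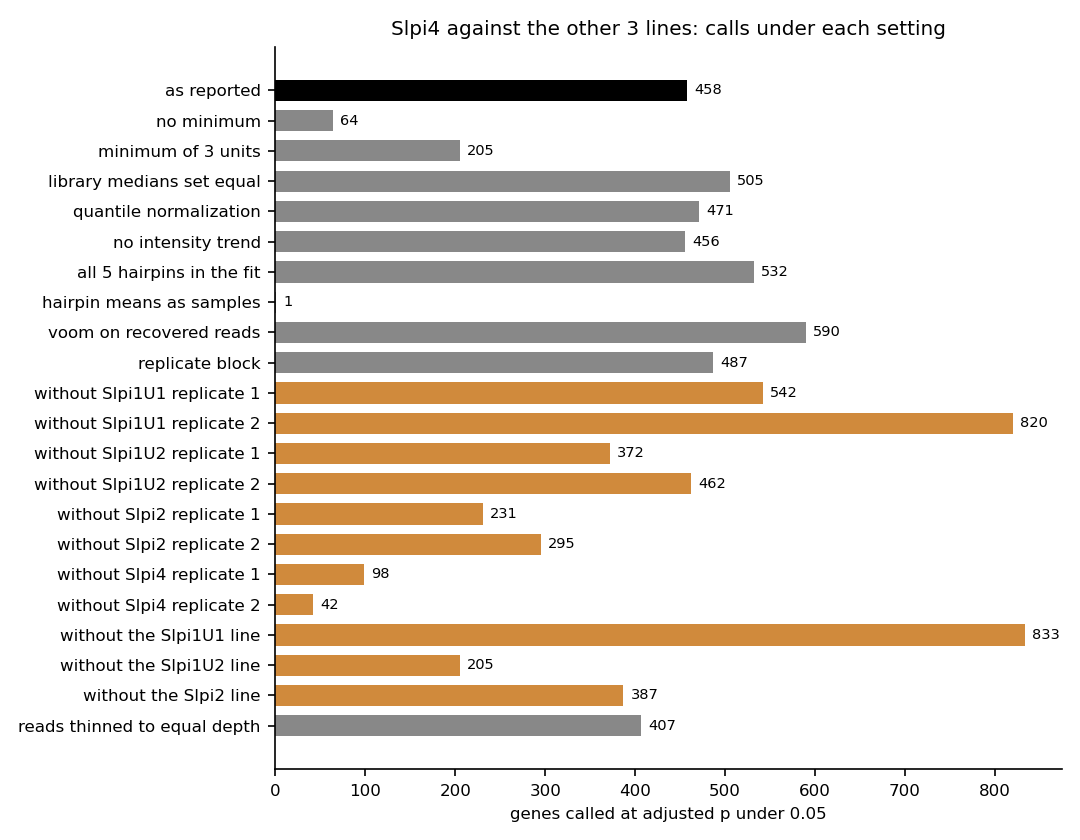
Number of genes called between Slpi4 and the other 3 lines (x axis, from 0) as reported (black), with other processing (grey), and with 1 library or 1 line left out (orange). The count of 458 ranges from 42 to 820 when single libraries are left out, and is 1 with line means as samples.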

How the data were processed

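RNA of each line was sequenced from libraries made from 100 ng of RNA (NuGEN Ovation V2, 200 bp fragments, 76 bp reads), per the labels' protocols. Per the submitters' processing notes, Bowtie2, HTSeq, DESeq and mm10 were used, and their versions, the annotation and the strand setting were not given in the sources used here. The authors deposited variance-stabilized values on a log2-like scale, 2 columns per line, for 23480 genes. Going from 100 to 200 scaled reads adds 0.36 and from 1000 to 2000 adds 0.77, so the scale understates changes of low genes. The transform was inverted in closed form, and 100% of the values gave whole reads within 0.001. CPM values and their ratios come from those reads.

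Differences on the deposited values were tested with limma 3.58.1 (R 4.3.3) with an intensity trend, 1 mean per line over the 8 libraries, and Benjamini-Hochberg adjustment over 9499 genes whose values passed a minimum of 1 unit above the smallest value (121 scaled reads). Calls required an adjusted p under 0.05. The procedure was checked on simulated data in which the lines differed only by planted changes in Slpi4. That check held no other spread between lines and cannot show how such spread affects the calls. Named genes are the 12 with the largest called difference in each direction and 5 more by ratio, both Slpi4 libraries lying outside the other 6 and unnamed gene models passed over, with Slpi, Mgp, Mmp3, Ccl2 and Nek2 and up to 4 called members per list. The lines, markers and gene lists were chosen with earlier results of these data known. Lengths and classes are from GENCODE and promoters from RefSeq. Alternatives covered the minimum, the scaling, the variance model, the samples in the fit, each library and line left out and, chosen after seeing the data, reads thinned to 12176854 per library. The replicate numbers were not used to pair the samples in the main fit. A few single genes are not reported here.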

Additional observations from a re-analysis of the deposited data

How the results depend on the processing

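The 458 calls between Slpi4 and the mean of the other 3 lines became 64 with no minimum, 205 with a minimum of 3 units, 1 with line means as samples, 833 without the Slpi1U1 line and 205 without the Slpi1U2 line, and 42 to 820 with single libraries left out; the cause was not tested. With voom on the recovered reads 590 genes were called, including all 458 in the same direction, and with reads thinned to equal depth 407, of which 372 were shared. With no minimum and with 3 units the calls were 38 and 53 against Slpi1U1 (56 to 691 without single libraries), 75 and 243 against Slpi1U2 (151 to 808), and 99 and 173 against Slpi2 (102 to 513). Slc3a2 reversed without the Slpi2 line (0.0013). With the replicate block 487 genes were called, 435 of them shared, and against single lines 242, 590 and 376. Of the 21 clustered histone genes, 8 were called higher with the replicate block and none as reported. Same-numbered libraries had correlations of −0.25 to 0.55 between lines, the highest for Slpi1U1 and Slpi4. In every line the second library had the higher Rn45s share and was the higher in 16 to 21 of the 21 clustered histone genes. Whether the numbers mark a shared batch was not tested. Not every gene named by rank kept its call without each single library, and Zbtb8a could not be tested without either Slpi4 library. With 2 libraries per line, a fit without one rests on the spread of the other lines.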
